A study of Mus musculus with 38 samples.

Results

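The comparison described here set LAP2B CUT&RUN libraries of quadruple-knockout (QKO) naive mouse embryonic stem cells against IGG libraries of wild-type (WT) naive cells, to ask what the LAP2B antibody still marked over background once lamins and LBR were gone. The 6 libraries, 3 QKO LAP2B and 3 WT IGG, were chosen by their labels, from 36 libraries in the gene and transposable element (TE) tables and 38 samples in the series. Both groups were naive cells kept without serum in 2 kinase inhibitors and LIF. QKO cells lack Lmna, Lmnb1 and Lmnb2, which also are lacking in their parent line (TKO), and carry indels in Lbr. They come from 1 surviving clone. WT cells come from a littermate line with none of these alleles, and the IGG libraries were made with a rabbit anti-mouse antibody in place of the LAP2 antibody. No IGG library of QKO cells was analysed here, so antibody and genotype changed together and their parts in every difference below cannot be told apart. The same holds for differences in DNA copy number between the lines, since the study's methods give an abnormal karyotype for the TKO line and for a part of the WT cells.

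LAP2β, a product of Tmpo, is a protein of the inner nuclear membrane that binds lamins and chromatin through BAF. The nuclear lamina, built of A-type and B-type lamins, and LBR, a membrane protein that binds heterochromatin, both hold gene-poor, AT-rich chromatin at the nuclear edge. In CUT&RUN an antibody guides a nuclease to its target and the released DNA is sequenced, whereas IGG libraries record where the nuclease cuts without a specific target, which is often open chromatin.

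Recovered reads over genes came to 31185078, 34639138 and 22809969 in the QKO libraries and to 12028659, 45689196 and 24485177 in the IGG libraries. On the spike-in scale the mean value per gene was 4.83, 3.89 and 4.61 in QKO LAP2B and 2.47, 1.78 and 2.70 in IGG, without overlap, although the constant behind the IGG factor is not given in the sources used here. Differences below are therefore log2(value / library median + 0.1), where the median is that of all genes or all TE families, and say how signal was shared out within a library. A gene was called at a limma adjusted p under 0.05. The signal over the 4 knocked-out genes does not test for the deletions, since values sum over the whole gene. Lbr was at 9.58, 8.19 and 8.72 in QKO and 5.44, 6.93 and 6.49 in IGG, in units of the library median gene. Lmnb2 was at 20.7, 14.3 and 18.8 against 4.11, 5.34 and 4.06. Lmna was at 52.0, 28.6 and 39.5 against 12.3, 9.01 and 11.9. Lmnb1 was at 12.2, 12.5 and 12.8 against 11.3, 12.3 and 11.2. The first 3 loci were called higher in QKO LAP2B than in IGG and did not overlap. Lmnb1 overlapped (adjusted p = 0.501).

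The DNA before the start of genes above and below IGG is shown here because the 2 sides differed in base composition on average. Of the 12 genes named below on each side, the 200 bases upstream of the annotated start are given for 3 that stood above IGG (Mylpf, Adamtsl4, Mllt6) and 3 that stood below it (Pramel33, Klrc2, Vmn1r8). They are examples picked after their values and sequences were seen. Mylpf and Pramel33 had the largest differences of the genes named on their sides. The windows of Mllt6 and Adamtsl4 hold more CG dinucleotides than others of the high side, such as that of Prmt1 with 12. Sequences are from GRCm39 with GENCODE M39 starts, 5′ to 3′ on the strand of the gene, and capitals mark each CG dinucleotide, which reads the same on both strands.
Mylpf, chr7:126807007-126807206, plus strand: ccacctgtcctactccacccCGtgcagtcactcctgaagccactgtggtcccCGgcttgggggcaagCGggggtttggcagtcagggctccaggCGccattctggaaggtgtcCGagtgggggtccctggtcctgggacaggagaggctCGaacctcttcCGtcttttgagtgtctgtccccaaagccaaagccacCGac
Adamtsl4, chr3:95595232-95595431, minus strand: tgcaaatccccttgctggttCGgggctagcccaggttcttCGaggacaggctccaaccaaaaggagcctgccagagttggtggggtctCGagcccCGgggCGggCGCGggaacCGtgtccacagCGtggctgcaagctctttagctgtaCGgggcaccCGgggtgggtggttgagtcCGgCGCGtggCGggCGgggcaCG
Mllt6, chr11:97553822-97554021, plus strand: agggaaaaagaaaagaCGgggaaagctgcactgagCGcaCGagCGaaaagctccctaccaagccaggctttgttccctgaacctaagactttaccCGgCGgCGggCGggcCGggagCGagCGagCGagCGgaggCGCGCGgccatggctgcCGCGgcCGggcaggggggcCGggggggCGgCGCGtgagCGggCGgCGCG
Pramel33, chr5:93688060-93688259, minus strand: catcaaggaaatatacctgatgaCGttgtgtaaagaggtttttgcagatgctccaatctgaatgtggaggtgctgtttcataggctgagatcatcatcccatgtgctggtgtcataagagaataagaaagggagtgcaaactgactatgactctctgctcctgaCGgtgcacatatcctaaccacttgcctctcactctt
Klrc2, chr6:129637653-129637852, minus strand: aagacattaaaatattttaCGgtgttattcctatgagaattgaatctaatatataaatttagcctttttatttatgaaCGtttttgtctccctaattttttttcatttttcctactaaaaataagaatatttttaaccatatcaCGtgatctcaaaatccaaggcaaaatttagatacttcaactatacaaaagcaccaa
Vmn1r8, chr6:57009069-57009268, plus strand: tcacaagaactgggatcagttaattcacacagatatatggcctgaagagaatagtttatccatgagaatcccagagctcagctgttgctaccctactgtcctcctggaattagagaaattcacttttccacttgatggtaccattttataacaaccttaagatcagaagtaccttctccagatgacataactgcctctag
The windows of Mylpf, Adamtsl4 and Mllt6 held 8, 17 and 27 CG dinucleotides, and those of Pramel33, Klrc2 and Vmn1r8 held 2, 3 and 0. Other windows of the high side held few, such as those of Tnfsf12 with 2 and Cracr2b with 1, so the high side reached into the counts of the low side, which ran from 0 to 3 over its 12 genes. Over all 20853 protein-coding genes tested with a full window, 90.1% had at least 1 CG and the median count was 5. The median was 8 for the 8382 genes called higher and 3 for the 6015 called lower. As the signal was summed over gene bodies, these counts describe the genes and not a site of binding.

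Of 70381 genes tested, 17478 (24.8%) were called higher in QKO LAP2B than in IGG and 21122 (30.0%) lower, together 54.8%. The 3 QKO libraries lay above all 3 IGG libraries for 28.4% of genes and below them for 34.4%. At over 2-fold, 9108 genes (12.9%) were higher and 7808 (11.1%) lower. The split between higher and lower rests on the scaling. By limma 45.3% of calls were higher, by edgeR on recovered reads 57.8%, by DESeq2 56.4%, and on the spike-in scale 99.4% (30712 higher and 200 lower), where the median of all genes moved from -0.18 to 0.58. The spread did not come from a few genes: the middle 90% of genes ran from -1.19 to 1.48, a width of 2.67. For LAP2B against the same IGG libraries that width was 1.46 in TKO, 2.03 in LBRKO (Lbr knockout) and 2.07 in WT cells. These comparisons share their IGG libraries and are set side by side only.

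QKO LAP2B was above IGG over genes poor in lamin B1 and below it over genes rich in it. Genes were put in 10 equal classes by the LMNB1 CUT&RUN signal per 1 kb bin in WT naive cells, libraries that were in neither group. The median difference was 0.26 in the class with least LMNB1 and 0.46 in the next, fell below 0 from class 5 on, and was -0.62 in class 9 and -0.52 in class 10. In class 2, 46.7% of genes were called higher and 12.0% lower. In class 9, 8.14% were called higher and 50.1% lower. LAP2B of WT cells ran the other way against the same IGG, from -0.68 to 0.89. TKO LAP2B ran from -0.27 to 0.22.

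**Figure D1:**
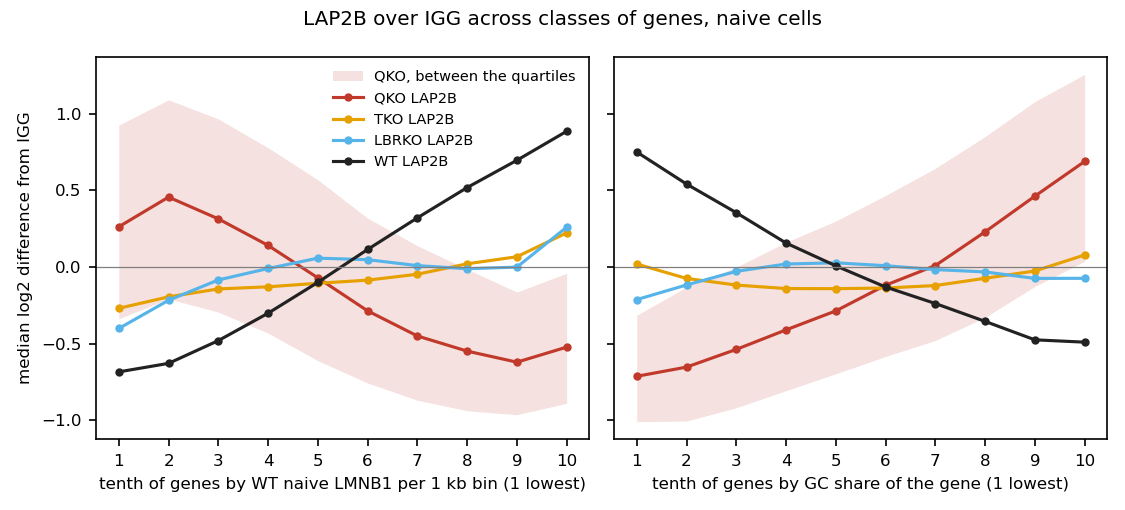
Median log2 difference of LAP2B from IGG (vertical axis) in 10 equal classes of genes by WT naive LMNB1 (left) and by GC share of the gene (right), for QKO, TKO, LBRKO and WT naive cells, with the range between the quartiles shaded for QKO. QKO falls from 0.46 to -0.62 with LMNB1 and rises from -0.71 to 0.69 with GC share, whereas WT runs the opposite way.

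The lamina contrast of a library, the log2 ratio of the mean value per bin over the LMNB1-richest to the LMNB1-poorest quartile of genes, put a sign on this. It was -0.83, -0.64 and -0.76 in the QKO libraries and 0.49, 0.11 and 0.20 in the IGG libraries. Every QKO library lay below every IGG library, with a difference of -1.01 (two-sided exact permutation p = 0.1, the smallest that 3 against 3 allows). TKO libraries, at 0.79, 0.49 and 0.83, were also all above QKO. The GC contrast, built in the same way from the GC share of the gene, was 1.99, 1.60 and 1.94 in QKO and 0.60, 0.72 and 0.58 in IGG. It did not overlap either (difference 1.21, exact permutation p = 0.1). IGG itself thus favoured GC-rich genes, and QKO LAP2B did so more.

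LMNB1 and GC share are tied to each other across genes, so each contrast was also taken inside quartiles of the other, an alternative added after the data were seen. Inside the GC-richest quartile the lamina contrast was -0.36, -0.29 and -0.29 in QKO and 0.77, 0.36 and 0.44 in IGG. Inside the GC-poorest quartile it was -0.14, 0.06 and -0.07 against 1.02, 0.68 and 0.71. In all 4 quartiles the libraries did not overlap, and the differences ran from -0.85 to -0.66 (exact permutation p = 0.1 each, 0.1 adjusted over 8 comparisons). The GC contrast inside LMNB1 quartiles differed by 0.79 to 1.09, again without overlap. The extremes were the genes that were GC-rich and LMNB1-poor, with a median of 0.78 and 59.4% called higher, and those GC-poor and LMNB1-rich, with a median of -0.76 and 62.4% called lower. The GC preference of amplification and sequencing was not measured apart from these values, and its part was not tested.

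The 12 genes named for a surplus of QKO LAP2B had the largest among called protein-coding genes with a gene name, of at least 5 bins, without overlap and over 1 Mb apart. They lay on 7 chromosomes, and all 12 were in the lower 4 of 10 LMNB1 classes. Mylpf, a myosin light chain of fast muscle on chromosome 7, was at 15.4, 12.1 and 16.2 in QKO and 2.03, 2.01 and 1.44 in IGG, a log2 difference of 2.93 (SE 0.20, adjusted p = 7.54e-16). Hcfc1, a transcription co-regulator on the X chromosome, was at 23.0, 15.1 and 19.4 against 2.44, 3.64 and 2.54, a difference of 2.70 (SE 0.20). Mllt6, a chromatin reader and fusion partner of MLL in leukaemia, on chromosome 11, was at 46.7, 34.9 and 41.9 against 6.53, 6.41 and 6.72, a difference of 2.62 (SE 0.17). In each of these the lowest QKO library lay far above the highest IGG library. Prmt1, which methylates arginines of histones and other proteins, was at 18.2, 12.5 and 15.9 against 2.33, 3.07 and 2.12. Foxo4, a forkhead factor, was at 6.73, 4.23 and 5.21 against 0.389, 1.18 and 1.04. The other 7 genes named on this side, Rab34, Adamtsl4, Cracr2b, Prr13, Prob1, Zbtb3 and Tnfsf12, had differences of 2.49 to 2.69, so the 12 were close to each other. Tnfsf12, the cytokine TWEAK, was the lowest of them at 2.49 (SE 0.18, adjusted p = 1.02e-14).

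In the other genotypes the same genes were closer to IGG. Over IGG, TKO LAP2B ran from 0.31 for Tnfsf12 to 1.26 for Foxo4, with 0.84 for Mylpf, 0.93 for Hcfc1 and 0.56 for Mllt6. LBRKO LAP2B ran from -0.78 for Mllt6 to 2.07 for Foxo4. WT LAP2B ran from -0.95 for Adamtsl4 to 0.087 for Rab34, with -0.60 for Mylpf, -0.68 for Hcfc1, -0.91 for Mllt6 and -0.66 for Tnfsf12. The WT difference was not called for Rab34, Cracr2b, Prr13, Foxo4 and Zbtb3. QKO against TKO LAP2B, which uses no IGG library, was called for all 12, from 1.33 for Foxo4 (adjusted p = 4.3e-05) to 2.18 for Tnfsf12 (adjusted p = 1.1e-12). The genes were picked for a high QKO value, so this direction was favoured by the choice.

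The 12 genes named below IGG, picked by the same rule, were mostly members of families of receptor, germline or gland genes that lie in tandem. Pramel33, of the PRAME-like family expressed in germ cells and early embryos, was at 1.03, 1.20 and 1.21 in QKO and 8.97, 6.21 and 7.35 in IGG, a difference of -2.60 (SE 0.17, adjusted p = 2.58e-16). Klrc2, a receptor of natural killer cells, was at 0.333, 0.267 and 0.309 against 1.92, 1.73 and 1.19, a difference of -2.07. Vmn1r8, a pheromone receptor, was at 0.422, 0.733 and 0.412 against 2.22, 1.64 and 2.85, a difference of -1.91. A lack of overlap between QKO and IGG was a condition for naming the 12 genes on this side. The others were Pramel44, Pramel54, Esp38, Tdpoz1, Or5k16, Or12d15, Vmn2r21, Serpinb3c and Sval1, at -1.75 to -2.55. Reads in such families can be shared between near-identical copies, so the level of a single member is uncertain.

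Esp38, a secreted peptide of exocrine glands, was nearly empty in QKO, with 0, 1 and 0 reads, and held 0.333, 0.319 and 0.458 of the median gene in IGG. It was as low in TKO LAP2B (0.0132, 0 and 0), whereas over IGG it stood at 1.16 in WT and 0.30 in LBRKO LAP2B. Its fitted difference of -2.18 depends on the pseudocount. Pramel44 was likewise low in both lines, at 0.0667, 0.0952 and 0.118 in QKO and 0.145, 0.1 and 0.119 in TKO. QKO against TKO was not called for these 2 genes (adjusted p = 0.97 and 0.63). It was called lower for the other 10, a direction favoured by the choice of genes with a low QKO value. A loss of DNA in the TKO line, from which QKO derives, and a loss of LAP2B cannot be told apart at these genes.

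**Figure D2:**
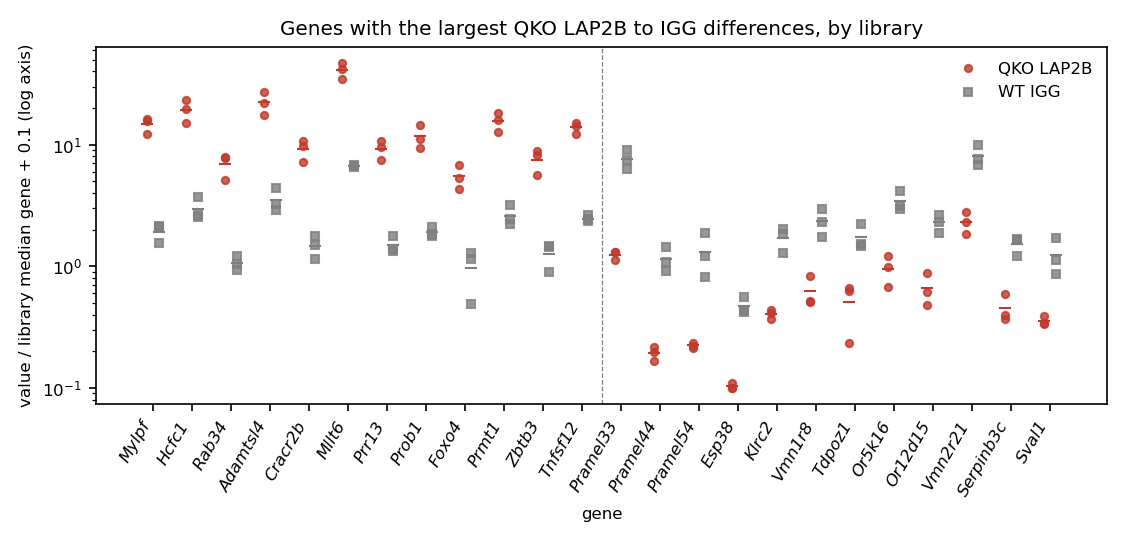
Value of each library divided by its median gene, plus 0.1 (log axis), for the 12 genes named above and the 12 named below IGG, with 3 QKO LAP2B libraries (circles), 3 WT IGG libraries (squares) and a line at each mean. The groups do not overlap in any of the 24 genes, which were picked on that condition.

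Genes that encode the nuclear envelope themselves mostly carried more LAP2B than IGG in QKO cells. Of 20 genes on this list, the 4 knocked-out genes among them, 17 were called higher and 1 lower, with a median of 0.64. Lmna, Lmnb2 and Lbr, given above, are 3 of the 17. Over all genes 24.8% were called higher with a median of -0.18, and over protein-coding genes, the nearer background for this list and the next ones, 40.2% with a median of 0.14. Prr14, which tethers heterochromatin to the lamina, was at 20.6, 13.5 and 20.2 in QKO and 4.78, 4.64 and 3.58 in IGG, a difference of 2.02 (SE 0.20, adjusted p = 2.63e-11). Banf1, which encodes BAF, the partner of LEM-domain proteins, was at 3.19, 2.32 and 3.59 against 0.639, 1.24 and 0.736. Emd, which encodes emerin, was at 3.74, 3.39 and 3.75 against 1.08, 0.956 and 1.38. These 3 did not overlap between groups. Sun2, of the bridge between nucleus and cytoskeleton, stood at 1.31, Sun1 at 0.73, Lemd2 at 0.72 and the nucleoporin gene Nup153 at 0.63. Tmpo, the gene of LAP2 itself, had 11.1, 9.35 and 10.8 against 9.36, 8.30 and 7.18, which overlapped in 1 library each (0.33, SE 0.14, adjusted p = 0.0365), and the call was lost without QKO replicate 1 (0.28), QKO replicate 3 (0.30), IGG replicate 2 (0.34) or IGG replicate 3 (0.23). Syne1, a giant gene of 532 bins that encodes a nesprin, was the one called lower, at 40.3, 49.7 and 42.3 against 85.8, 85.6 and 85.9 (-0.96, SE 0.10, adjusted p = 8.47e-11). On the spike-in scale 19 genes of the list were called higher and 0 lower by limma, and the call of Syne1 was lost. Syne2, another nesprin gene of 294 bins, was at 71.1, 69.0 and 73.9 against 60.5, 62.5 and 61.6 and was not called (adjusted p = 0.056). Lists of genes that are active in these cells followed the same side. Of 15 naive pluripotency factor genes 13 were called higher and none lower, at a median of 0.99. Pou5f1, which encodes OCT4, was at 9.19, 6.25 and 7.99 against 2.50, 1.84 and 1.82 (1.87, SE 0.25, adjusted p = 2.1e-08), and Klf4 was at 1.79, 2.07 and 2.21 against 1.72, 1.63 and 1.92, which overlapped. Of 14 constitutively expressed genes 13 were called higher, with Pgk1, a glycolytic enzyme gene, at 1.69 and B2m at 0.29 (adjusted p = 0.25). Of 84 ribosomal protein genes 63 were called higher and none lower, at a median of 0.99, led by Rps18 at 6.82, 5.09 and 6.15 against 1.11, 1.39 and 1.65. Of 21 replication-dependent histone genes that passed the filter, of 62 in the tables, 13 were called higher. In WT LAP2B the medians of the pluripotency, ribosomal and histone lists over IGG were -0.31, -0.71 and -0.91, and in TKO 0.47, 0.15 and 0.29.

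Genes of later lineages went both ways. Over all protein-coding genes 40.2% were called higher and 28.8% lower, and of 12 primed epiblast genes 6 were called higher and 3 lower, not far from those shares. Etv4, an ETS factor downstream of FGF signalling, was at 21.7, 14.7 and 20.0 against 3.61, 5.35 and 4.71 (2.02, SE 0.17), whereas Fgf5, an epiblast growth factor, was at 1.39, 2.35 and 1.60 against 4.83, 3.84 and 3.74 (-1.20, SE 0.18). Of 12 endoderm regulator genes 2 were called higher and 2 lower, between Amn at 1.05 and Dab2 at -0.92, and their median of -0.16 stood beside -0.18 over all genes and 0.14 over protein-coding genes. Of 39 Hox genes, which are repressed by Polycomb proteins in embryonic stem cells, 20 were called higher and none lower, at a median of 0.47, from Hoxc12 at 2.02 to Hoxd8 at -0.34 (adjusted p = 0.346), which was -0.50 without IGG replicate 2 and -0.14 without IGG replicate 3. Of 39 genes from Zfp900 to Zfp999 that passed the filter, which encode KRAB-type and other zinc fingers, 18 were called higher and 5 lower, between Zfp933 at 1.22 and Zfp994 at -0.74. On that list WT and TKO LAP2B also stood above IGG, with medians of 0.64 and 0.49. Of 58 clustered protocadherin genes, all on chromosome 18 and some with exons in common, 22 were called higher and 17 lower. These counts are again near the shares of protein-coding genes, and differences ran from Pcdhgc5 at 2.12 to Pcdhb4 at -0.89. On the spike-in scale none of the primed epiblast, zinc finger or protocadherin genes was called lower by limma, with 9, 33 and 25 called higher, and the protocadherin median turned from -0.21 to 0.55.

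Most lists of genes with expression limited to other tissues or stages stood below IGG. Of 18 long neuronal genes 17 were called lower (30.0% of all genes were), at a median of -1.03. Ctnna2, an adhesion gene of 1099 bins, was at 64.3, 84.5 and 67.9 against 209, 185 and 194 (-1.45, SE 0.11, adjusted p = 8.03e-15). Of 1104 olfactory receptor genes 684 were called lower and 2 higher, at a median of -0.78 with Or5au1 highest at 0.79. Of 259 vomeronasal receptor genes 226 were called lower and 1, Vmn1r1, higher (0.68). Of 52 Pramel genes 39 were called lower and 5 higher, with Pramel30 at 0.97. Of 72 genes of the Cyp2, Cyp3 and Cyp4 families, which oxidise drugs and steroids, 43 were called lower and 13 higher, between Cyp3a16 at -1.63 and Cyp4f14 at 1.27. Of 98 keratin-associated protein genes, which have a median GC share of 53.7%, 34 were called lower, a share near the 30.0% of all genes, and none higher, from Krtap15-1 at -1.71 to Krtap5-5 at 0.50 (adjusted p = 0.282), which was 0.13 without IGG replicate 1 and 0.95 without IGG replicate 3. Of 18 genes of the 2-cell stage that passed the filter, of 31 in the tables, 11 were called lower and 2 higher, from Zscan4f at -1.56 to Tcstv3 at 1.06. In WT LAP2B the medians of the neuronal, olfactory, vomeronasal and Pramel lists were 0.93, 0.83, 0.78 and 0.90 over IGG. In LBRKO LAP2B they were -0.20, -0.31, -0.53 and -0.12, on the side of QKO but nearer to IGG. In TKO LAP2B they were -0.05, 0.01, -0.01 and -0.36. The keratin-associated list stood at -0.37 in LBRKO and -0.35 in TKO, so a low side was not limited to QKO. The low side of these lists is relative to the median gene. On the spike-in scale the medians were -0.07 for the neuronal, 0.05 for the olfactory, -0.07 for the vomeronasal, -0.22 for the Pramel, 0.26 for the Cyp, 0.07 for the keratin-associated and -0.01 for the 2-cell list, and that of the endoderm list was 0.74. Outside the Pramel list nearly all calls of the low side were then lost. By limma 8 olfactory genes were called lower and 52 higher, 5 vomeronasal genes lower and 8 higher, and 0 neuronal genes lower and 1 higher. Of the Pramel genes 20 were called lower on that scale and 8 higher, beside the 39 and 5 above.

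**Figure D3:**
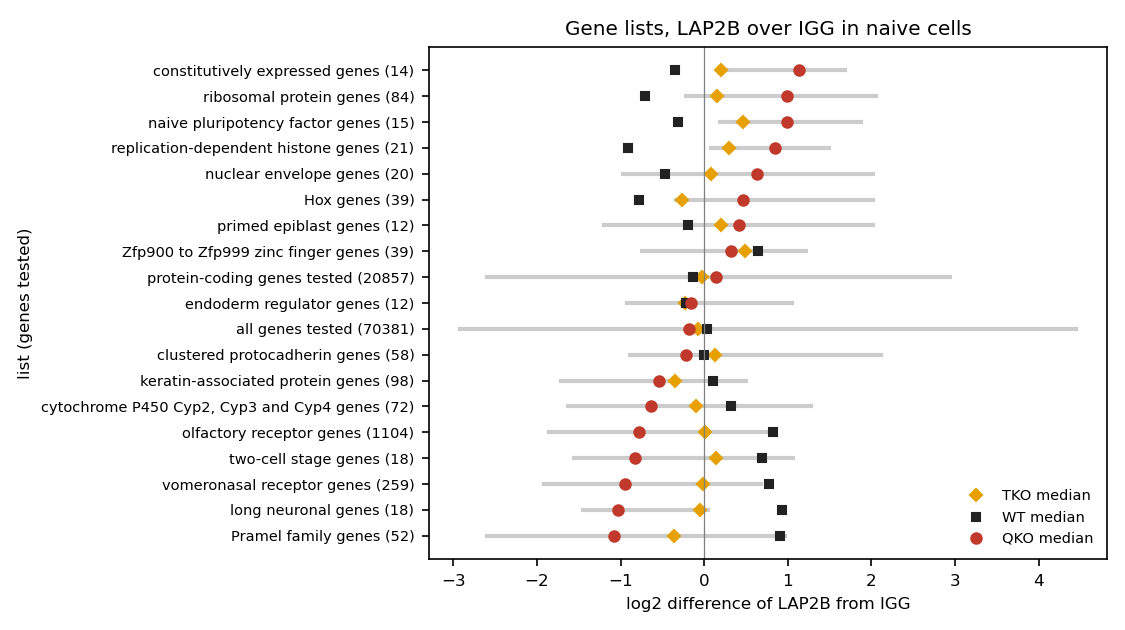
Median log2 difference of LAP2B from IGG in naive cells for each gene list, all genes tested and protein-coding genes tested, in QKO (circles), TKO (diamonds) and WT (squares), with the range of single genes in QKO as a grey bar and the number of genes tested in brackets. The list of the 4 knocked-out genes, at a QKO median of 1.15, is not drawn. QKO medians shown run from -1.07 for Pramel genes to 1.13 for constitutively expressed genes.

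The differences held over long stretches of chromosome. Protein-coding neighbours at most 50 kb apart and with no bin in common had log2 differences with r = 0.86 over 27462 pairs (rho = 0.87), those 200 to 1000 kb apart r = 0.53 over 250156 pairs and those 1000 to 5000 kb apart r = 0.22, as a description across genes that share the same 6 libraries. Of protein-coding genes called higher, 3842 lay in 90 unbroken runs of at least 20 genes. The longest run held 121 genes over 2.48 Mb of chromosome 10 (chr10:79505203-81989493, Tpgs1 to AU041133, median 1.59). A run of 99 genes on chromosome 7 (chr7:125699697-127727332, median 1.75) contained Mylpf and Prr14. Runs called lower were shorter in genes, with 429 genes in 16 runs of at least 20. They were longer in DNA, with a median span of 1.93 Mb against 1.14 Mb for the runs of at least 20 genes called higher. The run called lower with the most genes, 45 over 2.76 Mb of chromosome 6 (chr6:128459545-131224330, Pzp to Klra2, median -1.26), covers the natural killer receptor cluster with Klrc2. The run of 29 genes that starts at Pramel33 on chromosome 5 had a median of -1.97, the lowest among the 8 longest runs called lower. All runs rest on calls relative to the median gene. On the spike-in scale only 200 genes of all kinds were called lower by limma.

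Levels of whole chromosomes differed as well. The level of a chromosome, its median value per bin over that of all genes on a log2 scale, differed between QKO and IGG without overlap for 19 of 21 chromosomes (exact permutation p = 0.1 each, adjusted p = 0.111). Chromosome 11, gene-dense, was furthest above IGG, at 0.77 ± 0.11 (SD, n = 3) in QKO and 0.13 ± 0.03 in IGG. Chromosomes 19, 17 and 4 stood 0.39, 0.38 and 0.26 above IGG. Chromosomes Y, 6, 3 and 14 stood at -0.61, -0.42, -0.27 and -0.25 from it. In WT LAP2B chromosome 11 stood at -0.37 and chromosome 6 at 0.17 from the same IGG libraries. The study's methods name an extra chromosome 6 and an extra 8 for a part of the WT cells, an extra 8 for the TKO line, and loss of Y in a part of the cells of both lines. Chromosome 6 was at 0.14 ± 0.017 in IGG and -0.28 ± 0.051 in QKO, and chromosome 8 at 0.56 ± 0.0074 in IGG and 0.50 ± 0.0095 in QKO, high in both. The part of copy number in these levels was not tested. Chromosomes 7 and 16 overlapped.

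**Figure D4:**
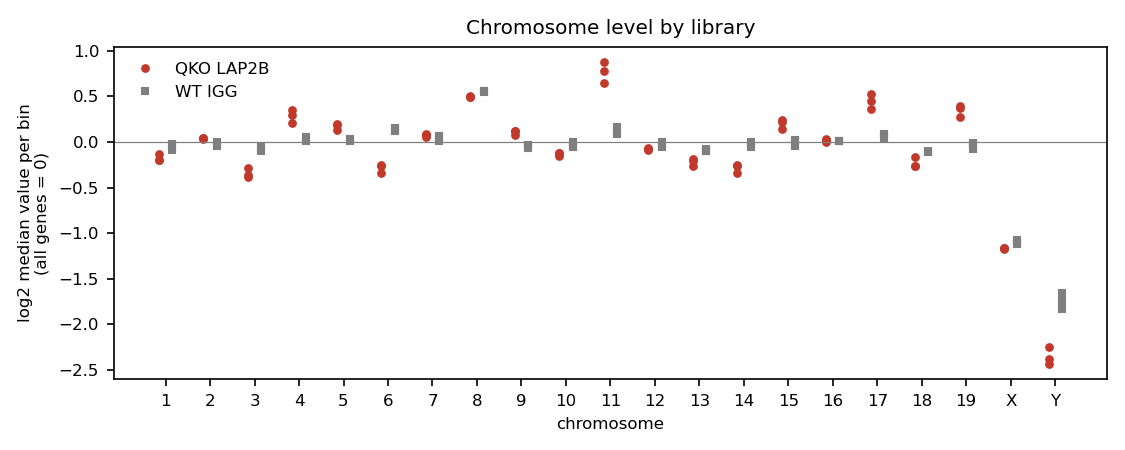
Log2 of the median value per 1 kb bin on each chromosome relative to all genes, for 3 QKO LAP2B libraries (circles) and 3 WT IGG libraries (squares). Chromosome 11 is highest in QKO with a mean of 0.77. Of the chromosomes on which QKO libraries lie below IGG, Y, 6, 3 and 14 do so by the most.

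Among repeats, every SINE family stood above IGG in QKO cells relative to the median family. A value of a copy covers whole bins and so also DNA around the copy. SINEs are short retroelements that lie mainly in gene-rich DNA, whereas LINE-1 (L1) elements are long ones that lie mainly in AT-rich DNA. Of 1225 TE families 383 (31.3%) were called higher and 423 (34.5%) lower relative to the median family, together 65.8%. The split rests on the scaling, with 512 higher and 19 lower when libraries are divided by their mean and 52 higher and 964 lower when divided by the median gene. The median family was at 0.171, 0.178 and 0.170 of the median gene in QKO and 0.221, 0.211 and 0.218 in IGG, so the median family stood lower against the median gene in QKO (exact permutation p = 0.1). All 34 SINE families were called higher, at a median of 0.53, also under division by the library mean and on the spike-in scale, whereas 26 were higher with the median over copies and 23 higher and 2 lower with division by the median gene. B1_Mus1, with 96303 copies, was at 1.72, 1.49 and 1.67 of the median family in QKO and 1.05, 1.06 and 1.04 in IGG. B2_Mm2 was at 1.67, 1.45 and 1.58 against 1.01, 1.05 and 1.03. These 2 families and IAPEz-int below were named after their values were seen. B1 families were furthest up, with PB1D9 at 0.76 and B1_Mur3 at 0.70. B2 families followed at a median of 0.56, B4 and ID families at 0.44, and the old MIR and L2 repeats at 0.27 and 0.17. The SINE class level was 0.54 ± 0.09 in QKO and 0.02 ± 0.02 in IGG (exact permutation p = 0.1, adjusted p = 0.167). It was 0.16 ± 0.03 in LBRKO LAP2B, where every library also lay above every IGG library.

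Young L1 families stood below IGG relative to the median family. All 25 L1Md families, the youngest in the mouse, and all 21 Lx families were called lower, at medians of -0.44 and -0.32, and of 149 L1 families 102 were lower and 17 higher. The L1Md, Lx and IAP groups were formed by name after values were seen. This direction turned on the spike-in scale, where the medians were 0.16 for L1Md, 0.22 for Lx and 0.33 for all L1 families, and with division by the library mean 1 L1Md and 0 Lx families were called lower by limma. Of the 149 L1 families, 29 were called higher and 0 lower by limma on the spike-in scale, 25 higher and 2 lower with the library mean, 0 higher and 24 lower with the median over copies, and 0 higher and 143 lower with division by the median gene. L1MdTf_III was at 1.94, 2.03 and 2.00 in QKO and 3.11, 2.91 and 3.00 in IGG (-0.57, SE 0.04, adjusted p = 5.93e-07). L1MdA_III was at 1.58, 1.66 and 1.62 against 2.43, 2.25 and 2.32. Both kept clear of IGG in every library. Of 25 families of IAP, an endogenous retrovirus, 23 were called lower at a median of -0.31, which was 0.24 on the spike-in scale. With division by the library mean 1 IAP family was called lower and 1 higher, and with the median over copies 8 IAP, 2 Lx and 17 L1Md families were called lower. Division by the median gene gave 24 IAP, 21 Lx and 25 L1Md families lower. IAPEz-int, its internal part, was at 1.94, 1.98 and 2.09 against 2.63, 2.74 and 2.84, a difference of -0.43. Over the same IGG it stood at -0.43 in WT and -0.83 in LBRKO LAP2B, so its low level was not limited to QKO. In TKO LAP2B the L1Md, Lx and IAP medians over the same IGG were 0.03, 0.11 and 0.08. LBRKO LAP2B stood on the same side as QKO, with medians of -0.35, -0.20 and -0.49, so that IAP was further below IGG there than in QKO.

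Of 630 LTR families 224 (35.6%) were called higher and 193 (30.6%) lower, near the 31.3% and 34.5% of all families. This split rests on the scaling, with 285 higher and 7 lower under division by the library mean, 325 and 0 on the spike-in scale, 25 and 470 under division by the median gene and 33 and 31 with the median over copies. LTRIS3, of 150 copies, stood at 0.87 and RLTR4_Mm at 0.70. RLTR13B2, of 312 copies, was at 3.58, 2.81 and 3.38 in QKO and 1.96, 1.89 and 1.82 in IGG (0.75, SE 0.09), and at 1.04 over IGG in TKO, where it was higher than in QKO (adjusted p = 0.0116). ZP3AR, a satellite-like repeat, was the highest of the 16 families named, at 2.64, 2.13 and 2.48 against 1.17, 1.27 and 1.20 (0.93, SE 0.09). GSAT_MM, the major satellite of pericentric DNA with 51 annotated copies, was at 954, 1167 and 1166 in QKO and 1524, 1419 and 1828 in IGG and was not called (-0.54, SE 0.27, adjusted p = 0.0936). The LTR, DNA and satellite class levels differed by 0.02, -0.03 and -0.03.

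**Figure D5:**
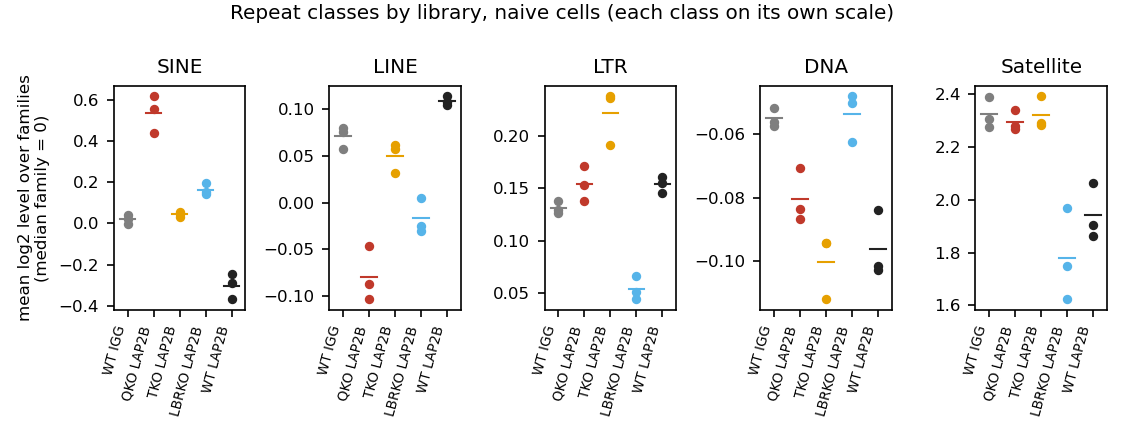
Mean log2 level over the families of 5 repeat classes in each library, relative to the median family, each class on its own scale, with 3 libraries and a line at the mean per group. SINE libraries of QKO stand above all other groups and LINE libraries of QKO below them.

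QKO and TKO LAP2B, from lines that differ by Lbr and by cloning, differed at 34770 genes (49.4%), 17297 (24.6%) higher and 17473 (24.8%) lower in QKO, and at 777 TE families (63.4%). Against the same IGG libraries, 16.1% of genes were called for TKO, 35.6% for LBRKO, 44.7% for WT and 54.8% for QKO LAP2B. In the GC-richest of 10 classes of genes the median over IGG was 0.69 in QKO and 0.08 in TKO, and in the GC-poorest -0.71 and 0.02. The SINE class level of QKO was 0.49 above that of TKO (exact permutation p = 0.1), without overlap.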

How the data were processed

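CUT&RUN libraries of naive mouse embryonic stem cells, 3 QKO LAP2B and 3 WT IGG, were compared within a fit of 15 naive libraries in 5 groups. According to the study's methods and the submitters' processing notes, the authors aligned reads to mm39 with Bowtie2 2.3.5.1, filtered them with SAMtools 1.10 and made spike-in scaled RPKM coverage with deepTools. The values deposited by the authors are signal per gene or TE copy that, from the values, sums the 1 kb bins a gene touches without division by length. How bins were joined to genes and copies is not given in the sources used here. The methods name bins of 10 kb for TE copies. A read was worth 0.891 to 0.913 times as much in the TE tables as in the gene tables of the same library, where a bin 10 times as wide would make it about 0.1 times. Each library was scaled by its own spike-in, and the constant of the IGG factor is not given there either. Steps of the gene values gave whole reads for 100% of values in these libraries (tolerance 0.05 of a step). Replicates are labelled as such, and nothing read here says that they were separate cultures, so p-values may measure technical spread only. Replicate reads differed by over 4.05 chi-square units per degree of freedom in every pair.

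Values were divided by the library median and analysed as log2(value + 0.1) with limma 3.58.1 (R 4.3.3, trend, Benjamini-Hochberg adjustment). The lowest 0.1 of genes by mean over 36 libraries were left out, TE copies were averaged by family name, and per-library measures were compared by two-sided exact permutation. edgeR 4.0.16 and DESeq2 1.42.0 on recovered reads, other scalings and pseudocounts, the replicate block and left-out libraries were alternatives. Gene positions are from GENCODE M39 on GRCm39, the build of the files, for 78131 of 78202 genes. Genes in 1 bin have equal values (343 of 343 sets), so neighbours are not independent. A test on simulated data for the QKO against IGG comparison held 70381 genes. It recovered 98.5% of genes changed 4-fold, 73.1% of those changed 2-fold and 11.9% of those changed 1.5-fold. Only 66, 67 and 67 genes were changed, none of them from the lowest read counts, and all genes had the same simulated spread. These are not rates for the data, where 54.8% of genes were called. Genes named were protein-coding with a gene name (no Gm, Rik or clone names), called, without overlap and of at least 5 bins, the first 12 on each side by size and over 1 Mb apart, with the first 8 TE families on each side of at least 100 copies, the nuclear envelope genes and the extremes of every list, of which 1 is not reported here. The members and lists were chosen with earlier results of these data known. A file of the authors' modified z-scores was not used.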

Additional observations from a re-analysis of the deposited data

Results flagged for a closer look

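The effect of LAP2B over IGG differed between genotypes, and in a test of the difference itself limma called 34770 genes and 777 TE families between QKO and TKO LAP2B. The lamina contrast of QKO LAP2B was -1.01 from IGG, and every QKO library lay below every IGG library while every WT LAP2B library lay above them. The GC contrast was 1.21 from IGG in QKO, with every QKO library above and every WT LAP2B library below IGG. The SINE class level was 0.52 above IGG in QKO, with every QKO library above and every WT library below IGG. LBRKO libraries, at 0.14, 0.15 and 0.20, also lay above IGG in this measure. The last 3 differences between QKO and WT were not tested. Groups of 3 libraries were not searched for outliers.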

How the results depend on the processing

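Calls depended on how libraries are put on one scale and on which features are tested. On the spike-in scale 30712 genes were called higher and 200 lower, and 578 TE families higher and 0 lower by limma (758 higher and 0 lower at an unadjusted p under 0.05). Division by the library mean gave 531 families, 19 of them lower. Division by the median gene gave 52 higher and 964 lower, and the median over copies 144 families, 64 higher and 80 lower. With genes of at least 10 kb alone 19831 genes were called, 8070 higher and 11761 lower. These were of 26570 genes tested, a larger share than the 54.8% called of all genes tested. Leaving out a library gave 31988 to 37797 genes and 711 to 815 families. On the spike-in scale Dab2 turned to 0.032, Rpl37a to 0.53, Hoxd8 to 0.46, Zfp994 to 0.18, L1MdTf_III to 0.034, L1MdGf_I and L1MdF_II to 0.086, IAPLTR3-int to 0.029, L1_Mus3 to 0.060, L1MdA_III to 0.092, L1MdGf_II and L1VL1 to 0.10, IAPEz-int to 0.17 and GSAT_MM to 0.10. GSAT_MM was 0.054 with the median over copies. H2bc1 (0.08) was -0.014 with a pseudocount of 0.5, -0.36 against IGG of both stages, -0.067 by edgeR and -0.071 by DESeq2. The LTR class was -0.30 with division by the median gene and the DNA class 0.093 with the mean over copies. Chromosomes 2, 10 and 16 were -0.014, 0.013 and -0.076 with the mean over genes and chromosome 8 was 0.013 with genes of at least 10 kb. Leaving out 1 library put chromosome 16 between -0.0030 and 0.013, the satellite class between -0.055 and 0.0036. Rpl37a ran from -0.46 to 0.12 (without IGG replicate 1) and H2bc1 from -0.45 (without IGG replicate 1) to 0.53. Their differences were not called in the first place.

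No pairing by replicate number was seen. Deviations of equal-numbered QKO and IGG libraries correlated at 0.0066, -0.064 and -0.0091, and no QKO library correlated best with its own number. With 3 libraries in a group this cannot show that none were prepared together. With the replicate block 17496 genes were called higher and 21114 lower, and 382 and 417 families, and exact sign flips over pairs cannot go below 0.25. Among named genes, leaving out 1 library lost the calls of Lemd3 (0.34 without QKO replicate 1, 0.28 without IGG replicate 1), Lemd2 (0.64 without QKO replicate 1), Hdac3 (0.34 to 0.43 without QKO replicate 1 or 3 or IGG replicate 1), Pcdhb4 (-0.63 without QKO replicate 1) and Tmpo (0.23 to 0.34). Of named genes and families, 7 kept their side but lost their call on the spike-in scale (Syne1, Fgf5, Ctnna2, Pcdhb4, Zscan4f, Defa30 and Tmco5b). Those that turned side on that scale are listed above and not counted here, and 0 TE families were called lower there. The call was also lost for 6 with the library mean (5 L1 families and IAPEz-int) and 2 with no filter (Tmpo and Lemd2). It was lost for 2 with the median over copies (L1MdF_II and IAPEz-int), 1 by edgeR (Pcdhb4) and 1 against IGG of both stages (Hdac3). The filter on low values was not varied for TE families, since none was applied. Depth limits single small genes most, at a median of 36 reads per gene in the shallowest IGG library.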

Other observations

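Some genes rich in LMNB1 stood above IGG in QKO cells. Of all genes in the LMNB1-richest of 10 classes 9.34% were called higher (24.8% over all classes), and in the LMNB1-poorest 12.5% were called lower (30.0% over all classes). In the richest class, 115 named protein-coding genes of at least 5 bins were called higher without overlap, beside 170 called lower in the poorest. The genes named here were chosen after their values were seen. Sinhcaf, of a SIN3 histone deacetylase complex, was at 23.1, 17.9 and 23.2 in QKO and 7.17, 7.10 and 6.25 in IGG, a log2 difference of 1.62 (SE 0.14, adjusted p = 6.18e-13 by limma), and stood at 0.81, 2.63 and 0.84 in TKO, LBRKO and WT. Gdf3, a TGF-β family ligand of pluripotent cells, was at 6.67, 5.10 and 5.28 against 1.92, 2.15 and 1.85 (1.47), with 1.19 in TKO and 1.11 in LBRKO. Tnfrsf1b, a TNF receptor gene, stood at 1.37 and Ftl1-ps1 at 1.61. At all 4 loci LAP2B of every genotype stood above IGG on this scale. Among LMNB1-poor genes, Tmco5b was at 1.06, 1.11 and 0.485 against 2.53, 2.26 and 2.40 (-1.41), and Defa30, a defensin of a tandem family on chromosome 8, was at 0.144, 0.124 and 0.0588 against 0.611, 0.400 and 0.528, and as low in TKO. Defa30 held only 13, 13 and 4 reads in QKO over 17 bins. Its QKO values are close to the pseudocount of 0.1, on which its fitted difference of -1.56 depends.

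Kinds of genes differed as well. Protein-coding genes had a median of 0.14, with 40.2% called higher and 28.8% lower. miRNA genes had 0.17, with 26.6% higher and 9.01% lower. lncRNA genes had -0.24 and unprocessed pseudogenes -0.65 with 2.83% higher and 43.3% lower. At Lmna, 1 TKO library stood at 37.8 and the others at 10.8 and 9.66, while QKO was at 28.6 to 52.0.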
